A study of Mus musculus with 18 samples.

Results

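Regulatory T (Treg) cells of the spleen were set against Treg cells of the lymph node, the 2 secondary lymphoid organs among the 6 sites of the series. The members are the 3 spleen and the 3 lymph node libraries, chosen by their site label, 6 of 18 libraries in all. Both groups hold poly(A) RNA of CD4+Foxp3+ cells sorted fresh from wild-type mice that received no treatment, so the groups differ by organ alone as far as the labels go. The labels give neither the sorting gates, the age, sex or number of the mice, which lymph nodes were taken, nor whether replicates came from separate sorts. P-values therefore measure only the spread between these libraries, which may be technical.

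Treg cells suppress immune responses and depend on the transcription factor Foxp3 and on interleukin-2 (IL-2), which they consume through a receptor with the alpha chain Il2ra. Blood lymphocytes enter lymph nodes across specialised venules with the help of the chemokine receptor Ccr7, whereas the spleen filters blood directly and has a red pulp rich in macrophages, plasma cells and red blood cells. Chemokine receptors and integrins mark where a Treg cell can settle: Ccr9 and the integrin chain Itgae are known from the gut and other epithelia, Cxcr3 from type 1 inflammation, and Cxcr5 from B cell follicles.

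Lymph node Treg libraries held more RNA of the Treg core genes, of the IL-2 receptor pathway, and of resting T cell genes, along with that of the gut receptor Ccr9. Itgae showed the largest difference among them, with 104 TPM in lymph node and 17.9 TPM in spleen. Of 20 general T cell genes, 13 were lower in spleen as well. Spleen Treg libraries held more RNA of Il2 itself, of Cxcr3, of the AP-1 genes Fos, Fosb, Jun and Junb, and of both inducible Hsp70 genes. They also held several times more RNA of B cell, plasma cell, myeloid and red blood cell genes. Cxcr5 was higher in spleen too, but its call was lost without any 1 lymph node library.

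Genes were tested where the mean of either organ reached 1 TPM, a unit of transcript share in the library, which left 14018. Of these, 1022 (7.29%) were higher in spleen and 2749 (19.6%) were lower, at an adjusted p under 0.05 in limma with Benjamini-Hochberg adjustment on log2(TPM + 1). All differences below are on that scale, spleen minus lymph node, and understate the change of genes with low TPM. At least 1 log2 unit separated the groups for 444 of the higher (3.17%) and 237 of the lower genes (1.69%). The 3 spleen libraries lay above all 3 lymph node libraries for 1740 genes (12.4%) and below them for 4646 genes (33.1%). The median difference of all genes was -0.15. Ribosomal protein genes took 27.8% to 28.1% of the library in spleen against 24.7% to 24.8% in lymph node. With the libraries scaled by the median of ratios instead, 1553 genes (11.1%) were higher and 1232 (8.79%) lower, and with 20 general T cell genes as the scale 1956 (14%) were higher and 803 (5.73%) lower. Without lymph node replicate 1, 2 or 3 in turn, 613 (4.37%), 612 (4.36%) and 623 (4.44%) genes were higher. The lower genes then came to 1344 (9.58%), 1354 (9.65%) and 1355 (9.66%). The first principal component separated the groups and held 48.9% of the variance.

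The lymph node libraries were deeper. From the steps between low TPM values, a single read at a length of 1 kb came to 0.157 TPM in spleen and 0.0876 TPM in lymph node, a depth ratio of 1.8. From 16685 to 16756 genes were above 0 in the spleen libraries and 18985 to 19297 in the lymph node libraries. Replicates also varied more in spleen, with a median coefficient of variation of 5.24% against 2.55% among genes of at least 100 TPM. The variance between replicates was 2.31 to 6.15 times the counting noise. Each library was counted as 1 replicate, and this ratio does not show whether replicates came from separate sorts.

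The difference between the organs also followed transcript length. Across 8760 genes of at least 10 TPM in either group, its Spearman correlation with length was -0.475, against -0.0346 to 0.0149 for differences between replicates of 1 organ. For the other 4 sites minus the same lymph node libraries it lay between -0.121 and 0.0451. These are correlations across genes of shared libraries and are given as a description. From the shortest to the longest of 8 bins of genes, the median difference went from 0.16 (171 to 1256 bases) to -0.42 (6056 to 40378 bases). With this trend removed, an alternative added after the data had been seen, 1159 genes (8.28% of 13993) were higher and 850 (6.07%) lower. The source of the trend was not tested. Counts with the trend removed are therefore given for the gene groups below. Each group's share of called genes is to be read against the shares of all genes, 7.29% higher and 19.6% lower as deposited and 8.28% and 6.07% with the trend removed. Under TPM and all 3 other scalings (median of ratios, T cell genes, length), 805 genes (5.74%) were higher and 503 (3.59%) lower.

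**Figure D1:**
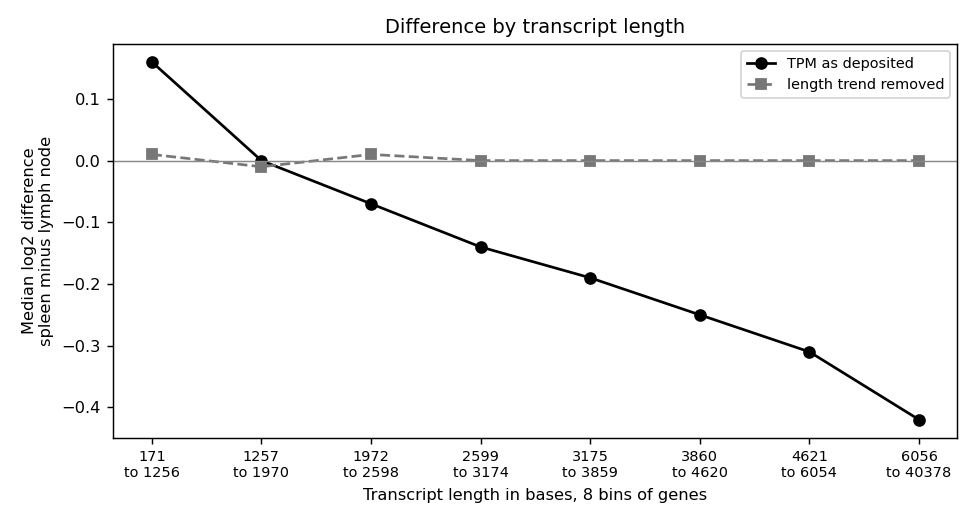
Median log2 difference of TPM + 1, spleen minus lymph node, for genes in 8 bins of transcript length in bases, as deposited (circles) and with the length trend removed (squares). The median falls from 0.16 in the shortest to -0.42 in the longest bin as deposited.

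The Treg core genes were mostly lower in spleen. Of 18 core genes, all tested, 11 were lower (61.1%, against 19.6% of all genes) and 1 was higher, with a median of -0.42 beside -0.15 for all genes. With the length trend removed, 9 were lower (50%, against 6.07% of all genes) and 1 higher, with a median of -0.21 beside 0.0 for all genes. General T cell genes shifted too. Of 20 of them, 13 were lower (65%) and 2 higher as deposited, with a median of -0.31. With the trend removed, 10 were lower (50%) and 1 higher (median -0.17). On the T cell gene scale 9 core genes were lower and 3 higher, with a median of -0.19. Foxp3, the defining transcription factor (chrX:7573644-7595245 in mm10), measured 131.7, 149.5 and 137.9 TPM in the spleen libraries and 239.1, 236.2 and 240.3 TPM in the lymph node libraries. The groups did not overlap, and the difference was -0.77 (SE 0.05, adjusted p = 2.67e-04 in limma). Il2ra measured 131.8, 125.1 and 126.9 TPM in spleen against 224.9, 237.1 and 239.2 TPM in lymph node, a difference of -0.86 (SE 0.04, adjusted p = 8.38e-05 in limma). Ctla4, an inhibitory receptor that strips costimulatory ligands from other cells, differed by -0.74, and Ikzf4, a partner of Foxp3, by -0.71. Lrrc32, which presents latent TGF-beta on the Treg surface, differed by -0.95, the actin-capping protein Capg by -0.88 and Nt5e, an enzyme that makes adenosine, by -0.48.

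Not every core gene differed. Tnfrsf18 measured 295 TPM in spleen and 287 TPM in lymph node, Tnfrsf4 302 and 311 TPM, and Tigit 142 and 145 TPM, and none of these 3 passed the test. The 1 core gene called higher was Izumo1r at 0.15, and its adjusted p rose to between 0.0846 and 0.123 in limma when a lymph node library was left out. Ikzf2, which encodes Helios, was called lower at -0.21 but its direction turned with the scaling, to 0.03 against T cell genes and to 0.26 (adjusted p = 0.0271 in limma) with the length trend removed. Its call was also lost without any 1 lymph node library. Cd4 itself measured 366.8, 321.2 and 371.6 TPM against 410.6, 396.7 and 401.4 TPM and was not called (-0.19, adjusted p = 0.0526 in limma; 0.05 on the T cell gene scale). It was called lower, at adjusted p-values of 0.0312 to 0.0414 in limma, with the filter of 5 TPM or library weights, or without spleen replicate 2 or 3. Cd3e differed by -0.38. Of 20 genes of antigen receptor signalling, 14 were lower (70%) and 1 higher, Cd3d at 0.25, with 8 lower (40%) and 1 higher once the length trend was removed. On the T cell gene scale, which shares genes with this list, 6 were lower and 4 higher, with a median of -0.07. The largest difference among the lower ones was that of the phospholipase Plcg1 at -0.77. Cd3d missed the threshold without lymph node replicate 2 (adjusted p = 0.0534 in limma) and without lymph node replicate 3 (adjusted p = 0.0548 in limma).

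**Figure D2:**
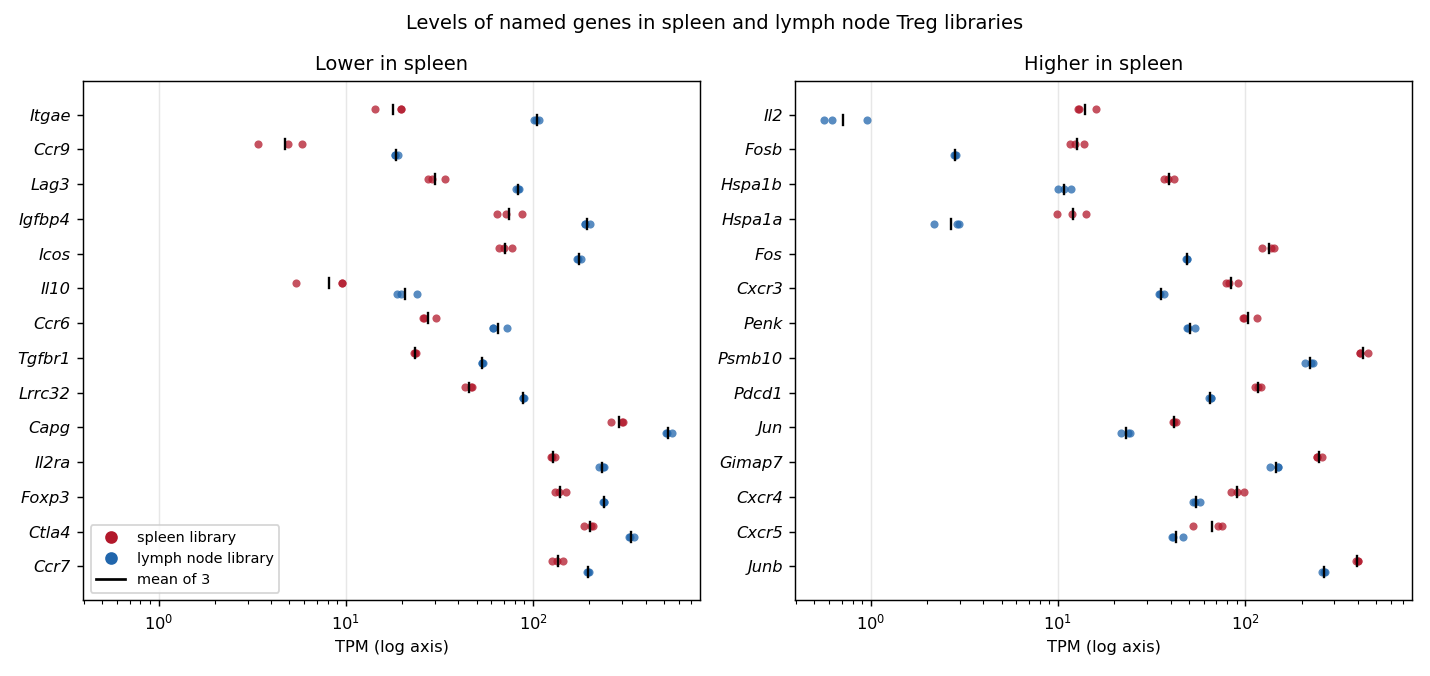
TPM on a log axis in each of the 3 spleen (red) and 3 lymph node (blue) Treg libraries for genes lower in spleen (left) and higher in spleen (right), with black ticks at the means of 3. Itgae stands farthest apart on the left, at 14.3 to 19.7 against 101.5 to 107.4 TPM, and Il2 on the right, at 12.8 to 15.9 against 0.56 to 0.96 TPM.

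The IL-2 receptor and its signalling genes were lower in spleen along with Il2ra. Of 17 genes of the IL-2 and STAT5 list, 12 were lower (70.6%) and 1 higher (median -0.44), and 9 were lower (52.9%) and 2 higher with the length trend removed (median -0.15). Il2rb, the beta chain of the receptor, differed by -0.48, the kinases Jak1 and Jak3 by -0.45 and -0.53, and the transcription factor Stat5a by -0.44. The feedback genes Socs2 and Cish, known targets of STAT5, differed by -0.79 and -0.55. The 1 gene of the list that was higher in spleen was Il2, the ligand (chr3:37120523-37125959). Il2 measured 15.9, 12.8 and 13.0 TPM in the spleen libraries and 0.56, 0.62 and 0.96 TPM in the lymph node libraries. The difference was 3.12 (SE 0.18, adjusted p = 1.30e-04 in limma) and passed the test under all 17 alternatives.

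Foxp3-positive cells are known to make little IL-2, and conventional CD4 T cells and other lymphocytes make most of it. Of 9 genes listed as marks of activated conventional CD4 cells, 7 were tested, of which 3 were higher in spleen (Il2, Ifng and Ccl3) and 1 was lower, Cd40lg, as many as with the length trend removed. The summed level of the list ran from 69.1 to 86.6 TPM in spleen and from 60.4 to 60.8 TPM in lymph node. Il4 (4.58 and 3.58 TPM), Tnf (25.2 and 24.7 TPM) and Il21 (1.53 and 1.02 TPM) did not pass the test. In sorted bulk RNA, more cells of a type and more RNA per cell cannot be told apart, here and for every gene below, and the part of other cells in the Il2 value was not tested.

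Genes of resting and recirculating T cells were lower in spleen. Of 20 genes, 15 were lower (75%) and none was higher in limma (2 at an unadjusted p under 0.05), with a median of -0.52. With the length trend removed 11 were lower (55%) and 1 higher (median -0.33). Ccr7 differed by -0.54, and its spleen libraries at 126.5 to 144.4 TPM lay below the lymph node libraries at 195.0 to 198.1 TPM. The transcription factors Lef1 and Satb1, which are high in naive T cells, differed by -0.62 and -0.68, and Igfbp4, a binder of insulin-like growth factors, by -1.38.

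The exit receptor S1pr1 differed by -0.35, and on the T cell gene scale by -0.11 with an adjusted p of 0.105 in limma. Klf2, the factor that drives S1pr1, did not differ at the threshold, with 199.9, 217.2 and 193.3 TPM in spleen against 184.9, 179.6 and 191.8 TPM in lymph node (0.13, adjusted p = 0.123 in limma). On the T cell gene scale Klf2 was called higher, at 0.37. Bach2, a repressor of effector genes with a long transcript, differed by -0.85, and by -0.39 with an adjusted p of 0.179 in limma once the length trend was removed. Without lymph node replicate 2 its adjusted p was 0.057 in limma.

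Receptors for cytokines other than IL-2 pointed the same way. Of 18 tested, 12 were lower in spleen (66.7%) and none was higher in limma (1 at an unadjusted p under 0.05), with a median of -0.45. With the length trend removed 6 were lower (33.3%, median -0.23), and without 1 of the lymph node libraries 7 to 8 were. Tgfbr1, the type I receptor of TGF-beta, measured 23.2, 23.5 and 23.6 TPM in spleen against 53.9, 53.1 and 53.6 TPM in lymph node, a difference of -1.16 (SE 0.06). Its partner Tgfbr2 differed by -0.67, and the ligand gene Tgfb1 by -0.54. Il6st, the signalling chain shared by IL-6 family receptors, differed by -0.99, the IL-6 binding chain Il6ra by -0.86 and the IL-18 receptor gene Il18r1 by -0.64.

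Homing receptors split by direction. Of 30 trafficking genes, 15 were lower (50%) and 6 higher (20%) in spleen (median -0.32), and 14 were lower (46.7%) and 8 higher (26.7%) with the length trend removed (median -0.15). Without 1 of the lymph node libraries 3 to 4 were higher. Itgae, the alpha E chain that binds E-cadherin on epithelia (chr11:73090583-73147446), measured 19.7, 19.7 and 14.3 TPM in spleen and 101.5, 107.4 and 104.3 TPM in lymph node. The difference was -2.49 (SE 0.13, adjusted p = 9.20e-05 in limma), and -2.28 with the length trend removed. The gut receptor Ccr9 (chr9:123678439-123784330) measured 3.41, 4.92 and 5.86 TPM against 18.4, 18.9 and 18.4 TPM, a difference of -1.79 (SE 0.18, adjusted p = 8.95e-04 in limma). Ccr6 differed by -1.22, the skin receptors Ccr4 and Ccr10 by -0.89 and -1.84, Ccr2 by -0.95, Cxcr6 by -0.95 and the laminin-binding chain Itga6 by -0.66. Itga4 (89.5 and 96.6 TPM) and Itgb7 (583 and 630 TPM), which together form the gut-homing integrin, did not pass the test.

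In the other direction, Cxcr3 (chrX:101731535-101734269) measured 81.8, 92.0 and 79.0 TPM in spleen against 35.3, 34.8 and 36.9 TPM in lymph node. The groups did not overlap, and the difference was 1.21 (SE 0.08, adjusted p = 1.78e-04 in limma). Tbx21, which encodes T-bet and drives Cxcr3, measured 6.24, 6.45 and 8.13 TPM against 2.92, 2.22 and 3.75 TPM, a difference of 1.01. Its adjusted p in limma was 0.013, and 0.0541 and 0.0517 without lymph node replicates 1 and 2. Ifng, the cytokine of the same programme, differed by 1.26, with an adjusted p of 0.0549 in limma without lymph node replicate 3. Cxcr4, a receptor for retention in bone marrow and other stroma, differed by 0.72. Gpr183, an oxysterol receptor that places lymphocytes within lymphoid tissue, differed by 0.40. It missed the threshold without lymph node replicate 1 (adjusted p = 0.0725 in limma) and without lymph node replicate 2 (adjusted p = 0.0615 in limma).

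The list of the Th17 and gut programme shares Itgae, Ccr9 and Ccr6 with the homing receptors. Of 16 listed, 12 were tested, 7 were lower (58.3%) and none was higher in limma (0 at an unadjusted p under 0.05), with a median of -0.33. With the length trend removed 5 were lower (41.7%) and 2 higher (16.7%). Ahr, a sensor of dietary and microbial ligands, differed by -1.21. The cytokine genes of the list were near 0, with Il17a at 0 and 0.34 TPM and Il22 listed at 0 in all 6 libraries. Il17f was listed at 0, 2.11 and 2.49 TPM in spleen and at 0 in the lymph node libraries, and was not called.

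**Figure D3:**
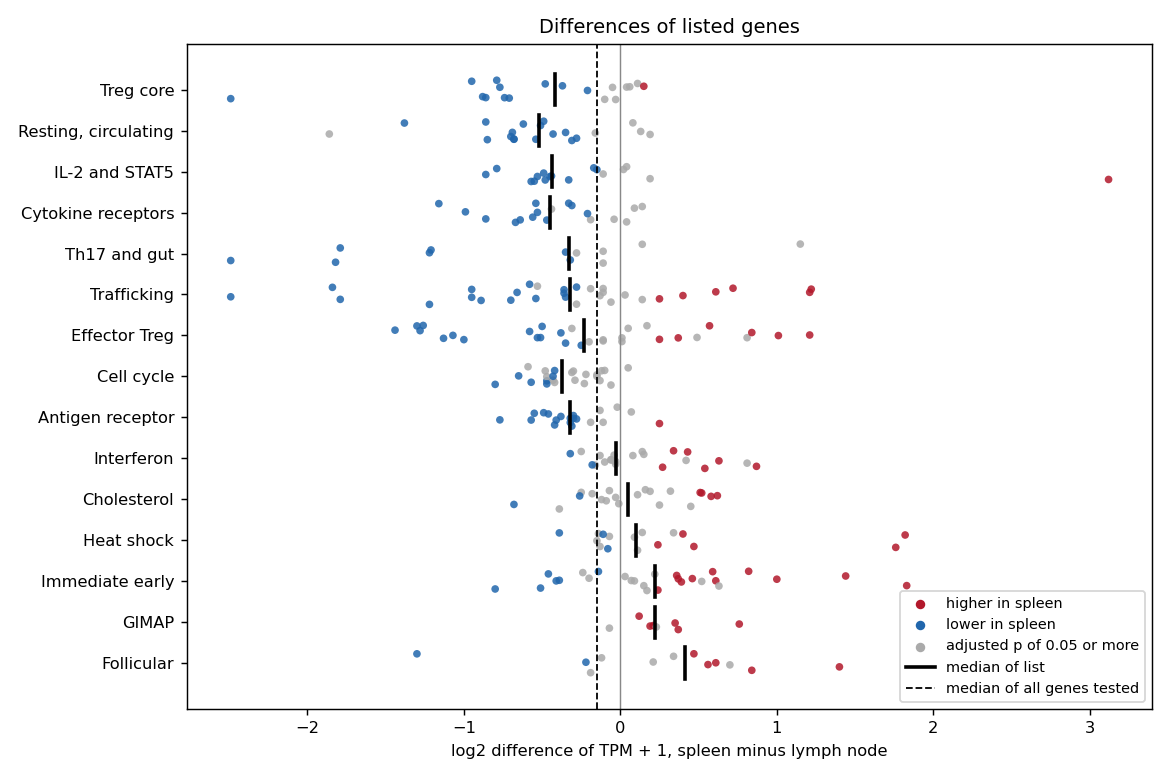
Log2 difference of TPM + 1, spleen minus lymph node, of each tested gene (points) in 15 lists, coloured by whether it was higher, lower or not called at an adjusted p under 0.05, with the median of each list (thick ticks) and of all genes (dashed line, -0.15). The resting list lies farthest to the left by its median (-0.52) and the follicular list farthest to the right (0.41).

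Effector Treg genes were mixed. Of 30, 14 were lower (46.7%) and 6 higher (20%), with a median of -0.23, and 9 were lower (30%) and 6 higher once the length trend was removed. Without any 1 lymph node library 9 were lower. On the T cell gene scale the balance turned, with 9 higher and 7 lower. Lag3, an inhibitory receptor for MHC class II (chr6:124904361-124911705), measured 33.7, 29.0 and 27.4 TPM in spleen against 83.6, 84.0 and 81.6 TPM in lymph node, a difference of -1.44 (SE 0.09, adjusted p = 1.59e-04 in limma). Icos, a costimulatory receptor of effector Treg cells, measured 77.0, 66.2 and 69.7 TPM against 179.4, 172.5 and 174.7 TPM, a difference of -1.30. The suppressive cytokine Il10 measured 9.5, 9.59 and 5.43 TPM against 18.7, 19.7 and 24.0 TPM, a difference of -1.28 (SE 0.22, adjusted p = 0.00736 in limma). The transcription factor Irf4 differed by -1.07. The granzyme gene Gzmb differed by -1.26, but its adjusted p lay between 0.0509 and 0.054 in limma without any 1 lymph node library. Higher in spleen beside Cxcr3 and Tbx21 were Pdcd1, which encodes PD-1, at 0.84 and the stress-responsive repressor Bhlhe40 at 0.57. Penk, which encodes proenkephalin and is a known Treg transcript, measured 98.8, 115.0 and 96.8 TPM in spleen against 48.9, 49.8 and 53.7 TPM in lymph node, a difference of 1.01 (SE 0.08).

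Follicular regulatory cells are the Treg subset that controls germinal centres. Of 12 of their genes, 5 were higher in spleen (41.7%, against 7.29% of all genes), 2 were lower and 5 were not called (median 0.41), and 5 were higher and 1 lower with the length trend removed (median 0.58). Without any 1 lymph node library, 3 were higher and 1 lower. Pdcd1 measured 112.6, 121.5 and 116.9 TPM against 65.3, 63.8 and 65.6 TPM. Cxcr5, the follicle receptor, measured 52.5, 74.8 and 71.9 TPM against 46.4, 41.2 and 40.8 TPM, a difference of 0.61 (SE 0.14, adjusted p = 0.0221 in limma). Sostdc1 differed by 1.40, Sh2d1a, the SLAM adaptor needed for T cell help to B cells, by 0.56, and the follicular repressor Bcl6 by 0.47.

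The calls of Cxcr5 and Bcl6 were lost when single libraries were left out. Without a lymph node library the differences were 0.57 to 0.66 for Cxcr5 and 0.44 to 0.5 for Bcl6. Genes called higher among all genes also fell in those fits, from 1022 to between 612 and 623. Cxcr5 had an adjusted p of 0.0535, 0.0821 and 0.0853 in limma without lymph node replicates 1, 2 and 3, and of 0.0518 and 0.0565 without spleen replicates 2 and 3. Bcl6 had 0.0529, 0.0702 and 0.061 without the same lymph node libraries in limma. The 2 lower genes were Icos and Btla. Btla differed by -0.22 and turned to 0.02 on the T cell gene scale, and its call was lost without any 1 lymph node library. B cells also make Cxcr5, Bcl6 and Btla, and all 12 B cell markers were higher in spleen, with summed levels of 1983 to 2042 TPM against 679 to 693 TPM. Their part in the follicular genes was not tested.

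Immediate early genes, which respond within minutes to receptor signals and to handling, moved in both directions. Of 27 tested, 11 were higher (40.7%, against 7.29% of all genes) and 6 lower (22.2%, against 19.6%), with a median of 0.22, and 12 were higher (44.4%) and 2 lower (7.41%) with the length trend removed (median 0.39). Without any 1 lymph node library 9 were higher and 2 to 4 lower. Fos, a subunit of AP-1 (chr12:85473890-85477273), measured 142.3, 122.9 and 137.0 TPM in spleen and 48.7, 49.2 and 48.3 TPM in lymph node. The groups did not overlap, and the difference was 1.44 (SE 0.07, adjusted p = 5.53e-05 in limma). Fosb measured 12.4, 13.8 and 11.6 TPM against 2.86, 2.78 and 2.81 TPM, a difference of 1.83, while Jun differed by 0.82 and Junb by 0.59. The mRNA decay factor Zfp36 differed by 0.39, the phosphatase Dusp1 by 0.37 and Ier2 by 0.46.

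Not all genes of the list followed. Nr4a3, an orphan nuclear receptor induced by the antigen receptor, measured 12.2, 12.5 and 11.5 TPM in spleen and 20.1, 20.9 and 24.4 TPM in lymph node, a difference of -0.80. It was the 1 gene of the 6 that was lower under every scaling. Cd69 (89.5 and 84.0 TPM) and Egr2 (20.6 and 18.4 TPM) did not pass the test. Of 21 glucocorticoid and clock genes, 2 were higher (9.52%) and 8 lower (38.1%), but 1 was lower with the length trend removed and 1 to 2 without 1 of the lymph node libraries. Tsc22d3, which encodes the glucocorticoid-induced leucine zipper, measured 181.5, 171.7 and 169.6 TPM in spleen against 117.1, 114.7 and 122.2 TPM in lymph node, a difference of 0.56.

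Heat shock genes also moved in both directions. Of 16, 5 were higher in spleen (31.2%) and 3 lower (18.8%), with a median of 0.10, and 6 were higher (37.5%) and 1 lower (6.25%) with the length trend removed (median 0.21). Without any 1 lymph node library 4 were higher and 1 lower. Hspa1b, an inducible Hsp70 gene (chr17:34956436-34959238), measured 37.0, 38.6 and 41.9 TPM in spleen and 10.8, 11.7 and 9.99 TPM in lymph node, a difference of 1.76 (SE 0.10, adjusted p = 1.09e-04 in limma). Its neighbour Hspa1a (chr17:34969190-34972156) measured 14.2, 9.94 and 11.9 TPM against 2.9, 2.17 and 2.96 TPM, a difference of 1.82. The pair is nearly identical, so the split of reads between them is uncertain. Hsp90aa1, the inducible Hsp90 gene, differed by 0.47 and the mitochondrial co-chaperonin gene Hspe1 by 0.40. The constitutive Hsp70 gene Hspa8 was lower, at 1540.0, 1537.4 and 1645.2 TPM against 2007.2, 2052.2 and 2108.5 TPM.

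The upstream 250 bases of Fos and of both Hsp70 genes are shown because these genes were higher in spleen together. They come from the RefSeq promoter table of GRCm38.p6 and are written on the strand of the gene, at chr12:85473640-85473889 (+), chr17:34972157-34972406 (-) and chr17:34959239-34959488 (-). Capitals mark 2 motifs searched on both strands, TGACGT, the core bound by CREB and ATF factors, and GAANNTTC, a heat shock element of 2 facing units.
Fos: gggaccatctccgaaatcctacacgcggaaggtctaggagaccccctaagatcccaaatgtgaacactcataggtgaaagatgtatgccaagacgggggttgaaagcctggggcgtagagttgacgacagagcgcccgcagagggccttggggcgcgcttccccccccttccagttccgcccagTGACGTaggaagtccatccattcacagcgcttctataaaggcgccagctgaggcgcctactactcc
Hspa1a: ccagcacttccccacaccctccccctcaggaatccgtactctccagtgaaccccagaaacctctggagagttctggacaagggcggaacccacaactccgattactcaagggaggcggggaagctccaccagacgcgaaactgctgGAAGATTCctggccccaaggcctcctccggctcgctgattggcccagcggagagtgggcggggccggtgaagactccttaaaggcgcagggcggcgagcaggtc
Hspa1b: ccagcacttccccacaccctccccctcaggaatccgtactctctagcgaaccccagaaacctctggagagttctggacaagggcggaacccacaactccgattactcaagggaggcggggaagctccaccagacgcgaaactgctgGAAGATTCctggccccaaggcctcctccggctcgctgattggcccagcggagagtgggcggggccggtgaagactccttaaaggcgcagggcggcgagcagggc
TGACGT occurred once in the Fos stretch, where it starts 66 bases before the transcription start, and was found in 6.47% of 32851 RefSeq promoter stretches of this length. GAANNTTC occurred once in each Hsp70 stretch, starting 104 bases before the start, and was found in 6.69% of all stretches. The 2 Hsp70 stretches differed at 3 of 250 bases (98.8% identity). A match describes the letters and is no evidence of binding.

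Most GIMAP genes were higher in spleen. Of 8 GIMAP genes, which encode lymphocyte survival GTPases, 6 were higher (75%) and none was lower in limma (0 at an unadjusted p under 0.05), with a median of 0.22. All 6 were also called on the other 3 scales, and without 1 of the lymph node libraries 4 to 5 genes were higher. The spans of Gimap5 and Gimap7 overlap that of Gm28053 on the same strand (27.4 TPM in spleen and 29.4 TPM in lymph node). Gimap7 measured 256.1, 241.9 and 243.3 TPM against 149.4, 136.4 and 150.3 TPM, a difference of 0.76, while Gimap6 differed by 0.37 and Gimap5 by 0.35. Of 48 proteasome genes, 9 were higher (18.8%, against 7.29% of all genes) and 7 lower (14.6%, against 19.6%), and 7 were higher (14.6%, against 8.28%) and 2 lower (4.17%, against 6.07%) with the length trend removed. The remaining 32 were not called as deposited. Without 1 of the lymph node libraries 4 to 5 were higher and 2 lower. The immunoproteasome subunits Psmb10 and Psmb9, which are induced by interferon-gamma, differed by 0.94 and 0.48, and the activator subunit Psme1 by 0.39.

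Of 23 interferon response genes tested, 6 were higher (26.1%) and 2 lower (8.7%), with a median of -0.03. Removing the length trend left 6 higher, and 3 to 4 were higher and 0 to 1 lower without 1 of the lymph node libraries. The median turned to 0.13, 0.21 and 0.15 with the median of ratios, the T cell gene scale and the length trend removed. Isg15 differed by 0.63, the RNA sensor Oas1a by 0.54 and Rtp4 by 0.43. Rtp4 missed the threshold without lymph node replicates 1 and 3 (adjusted p = 0.0529 and 0.0516 in limma). Of 20 genes of cholesterol and fatty acid synthesis, 4 were higher (20%, against 7.29% of all genes), among them Idi1, Fdps and Msmo1 at 0.52 to 0.62. Removing the length trend gave 6 higher (30%) and 1 lower. As deposited 2 were lower (10%), among them the desaturase Scd2 at -0.68. Without 1 of the lymph node libraries 0 to 1 genes of the list were higher, against 4.36% to 4.44% of all genes, and Fdps then had an adjusted p of up to 0.143 in limma.

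Most genes of proliferation were not called. Of 24 cell cycle genes, 7 were lower (29.2%, against 19.6% of all genes) and none was higher in limma, with a median of -0.37. At an unadjusted p under 0.05 in limma, 12 were lower and 0 higher. The 3 spleen libraries lay below all 3 lymph node libraries for 13 of the 24, against 33.1% of all genes. Removing the length trend left 2 called lower (8.33%, against 6.07%). Mki67, the proliferation antigen, measured 13.8, 13.3 and 13.2 TPM in spleen and 25.4, 23.4 and 23.4 TPM in lymph node, a difference of -0.80, and of -0.31 with an adjusted p of 0.0639 in limma once the trend was removed. The ribonucleotide reductase subunit Rrm2 differed by -0.65, and by -0.58 without the trend.

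Ribosomal protein genes, whose transcripts are known to be short, were mostly higher in spleen as deposited. Of 83 tested, 53 were higher (63.9%) and 12 lower (14.5%), and 37 were higher (44.6%) and 20 lower (24.1%) with the length trend removed. On the T cell gene scale 75 were higher, and without 1 of the lymph node libraries 7 to 8 were lower. Rpl37a measured 4616.3 to 4885.8 TPM in spleen against 2695.5 to 2736.0 TPM in lymph node, a difference of 0.82. Rpl41 differed by 0.58 and Rps20 by 0.59. Of 87 nuclear genes of the respiratory chain, 33 were higher (37.9%, against 7.29% of all genes), 3 were lower and 51 were not called. With the trend removed 20 were higher (23%) and 2 lower, and without 1 of the lymph node libraries 22 to 24 were higher and 1 lower. Of the 13 respiratory genes encoded in mitochondria, 4 were higher and 5 lower as deposited, and 3 were higher and 7 lower with the trend removed. Atp5e, a subunit of ATP synthase, measured 1104.5, 1075.9 and 1069.0 TPM against 525.3, 503.7 and 512.4 TPM, a difference of 1.07 that was 1.08 without the trend, and Ndufa2 of complex I differed by 0.95.

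The largest differences among the higher genes belonged to genes of other cell types, although both groups were sorted as CD4+Foxp3+ cells. The 20 general T cell genes summed to 10077 to 10216 TPM in spleen and 11058 to 11116 TPM in lymph node. Of the erythroid markers, 11 were matched, 10 were higher and 1 lower (0 lower without any 1 lymph node library), and they summed to 1885 to 2029 TPM against 106 to 111 TPM. The haemoglobin gene Hbb-bs measured 841.2, 880.3 and 900.4 TPM against 35.6, 34.1 and 28.3 TPM, a difference of 4.71, with Hbb-bt at 5.80, Hba-a2 at 4.57 and Hba-a1 at 4.11. Car1, a carbonic anhydrase of red blood cells, measured 13.5 to 16.5 TPM in spleen and 0, 0 and 0.1 TPM in lymph node. Haemoglobin genes are near-identical in pairs, so their separate values are uncertain.

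Plasma and B cell markers followed. Of 10 plasma cell markers 7 were higher and none lower in limma (0 at an unadjusted p under 0.05), with sums of 2249 to 2383 TPM against 221 to 258 TPM. Jchain, which joins secreted immunoglobulins, measured 123.4, 135.5 and 130.8 TPM against 3.68, 3.29 and 2.27 TPM, a difference of 5.02, and Igkc, the kappa light chain gene, differed by 3.33. Sdc1, a surface mark of plasma cells, was at 1.2 and 0.553 TPM and not called. Among the B cell markers Ms4a1 (CD20) differed by 2.16 and Cd79a by 1.79. The MHC class II genes Cd74 and H2-Eb1, made by B cells and by other antigen-presenting cells, differed by 1.74 and 1.91. Of 13 dendritic cell and MHC class II markers tested, 8 were higher and 1 lower, which was Ccr9.

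Myeloid genes completed this group. Of 14 myeloid markers, 13 were higher and none lower in limma (0 at an unadjusted p under 0.05), with sums of 1167 to 1283 TPM against 490 to 525 TPM. The neutrophil gene S100a9 measured 319.7, 229.8 and 292.4 TPM against 6.71, 19.6 and 33.1 TPM, a difference of 3.99, and S100a8 differed by 3.57. The granule genes Ngp, Camp and Lcn2 differed by 3.95, 3.79 and 3.29, and Plac8 by 3.29. Tyrobp, an adaptor of myeloid and natural killer receptors, differed by 3.72, the inflammatory cytokine Il1b by 3.58 and the macrophage receptor Csf1r by 3.32. Of 9 red pulp macrophage markers tested, 8 were higher and none was lower in limma (0 at an unadjusted p under 0.05), among them the iron exporter Slc40a1 at 3.26 and haem oxygenase Hmox1 at 2.50.

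Cytotoxic and natural killer markers were higher for 7 of 12 and lower for 1, Cd8a (12.7 and 18.8 TPM), with sums of 283 to 307 TPM against 118 to 134 TPM. Without 1 of the lymph node libraries 4 to 5 were higher and Cd8a was not called, nor was it under the 3 other scalings. The granzyme gene Gzma measured 24.0, 22.1 and 27.1 TPM in spleen against 1.71, 1.63 and 1.51 TPM, a difference of 3.27, the chemokine Ccl5 differed by 2.14 and Nkg7 by 0.73. Ncr1, a receptor restricted to natural killer and related cells, measured 3.07 and 0.197 TPM. Platelet markers summed to 7.14 to 8.85 TPM against 1.23 to 6.17 TPM. Of 15 stromal and endothelial markers, 14 were below 1 TPM in both groups, and Pecam1, which T cells also express, was the 1 tested (81.4 and 101 TPM), called lower as deposited but under none of the 3 other scalings in limma. For each of these sums the exact two-sided permutation test of 3 against 3 libraries gave p = 0.1, the smallest it can give. With the length trend removed, the number of markers called higher was unchanged for the B cell, plasma cell, myeloid, dendritic, erythroid and cytotoxic lists, at 12, 7, 13, 8, 10 and 7, and was 7 for the red pulp list. The part of such cells in the Treg gene differences was not tested. General T cell genes in sum were 0.915 times as high in spleen as in lymph node. On the T cell gene scale Foxp3 and Il2ra differed by -0.53 and -0.62, beside -0.77 and -0.86 as deposited. Other T cells carry the same general T cell genes, so this scale cannot show the part of other cells.

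**Figure D4:**
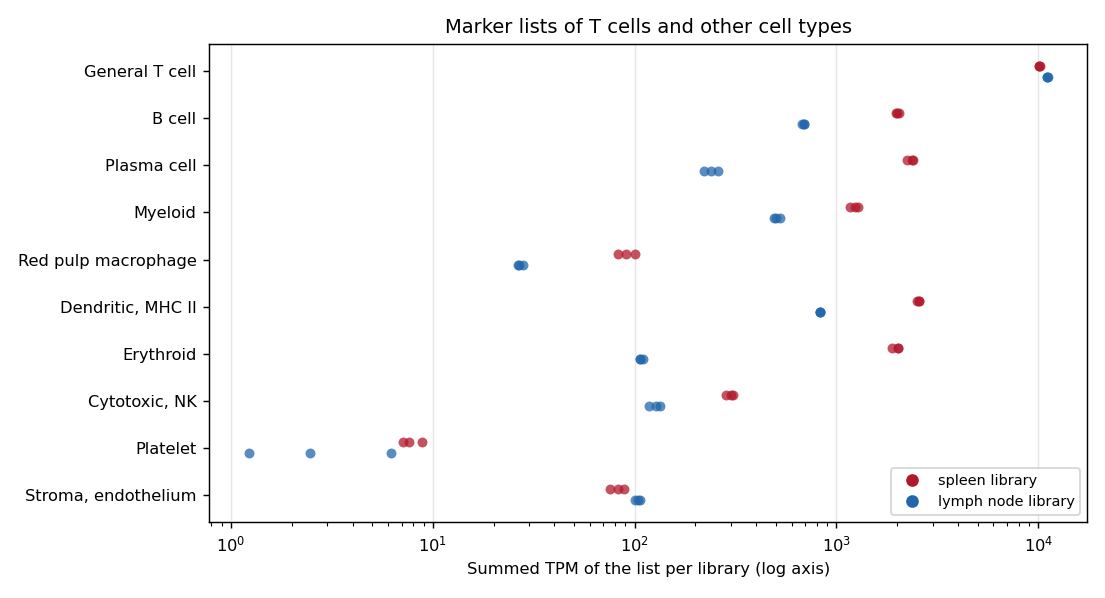
Summed TPM (log axis) of 10 marker lists in each spleen (red) and lymph node (blue) Treg library. The 3 spleen libraries lie above the 3 lymph node libraries for the B cell, plasma cell, myeloid, red pulp macrophage, dendritic, erythroid, cytotoxic and platelet lists and below them for the general T cell and the stromal lists.

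Among the 15 genes with the largest negative differences by the naming rule, several lie outside the lists. Apol9a (chr15:77403789-77411135) measured 0.64, 3.13 and 1.81 TPM in spleen against 20.8, 19.9 and 25.7 TPM in lymph node, a difference of -3.11 (SE 0.33, adjusted p = 0.00119 in limma). Its paralog Apol9b (chr15:77729039-77736382) measured 18.4, 9.66 and 12.5 TPM against 76.5, 91.7 and 86.5 TPM, a difference of -2.60. Both encode apolipoprotein L proteins and are close copies, so reads may be split between them. Enzymes that add sugars were among the others, Gcnt1, which branches O-linked glycans, at -2.06 and St8sia1, a sialyltransferase, at -1.44. Prg4, which encodes lubricin, differed by -1.58, the guanylate-binding protein Gbp2b by -1.56, the polarity gene Pard6g by -1.59 and Crmp1 by -1.67. Neb, which encodes nebulin and has a very long transcript, differed by -1.50, and by -0.82 with the length trend removed. Ptprv, a receptor phosphatase, differed by -1.52, and by -1.17 with an adjusted p of 0.056 in limma without the trend.

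Some of these genes overlap others. Haspin, which differed by -2.02, lies at chr11:73135485-73138294 on the minus strand within the span of Itgae on the plus strand. Ccr9 shares its span with Lztfl1 (15.1 and 28.8 TPM), Cxcr6 lies within Fyco1 (12.5 and 22.3 TPM), and Prg4 overlaps Tpr (157 and 208 TPM), each on the opposite strand. Foxp3, Cxcr5, Gpr183, Psmb9 and Junb overlap other genes as well. These overlaps are of whole gene spans, introns included, and shared exons were not checked. Whether the authors counted by strand is not given in the sources used here, so reads from any shared exon stretch may be misassigned.

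Set beside the other 4 sites, the lymph node had the highest mean of the 6 for Itgae, Ccr9, Lag3, Foxp3 and Il2ra. For Itgae the next level was that of bone marrow, at 49.7 TPM ± 1.09 (SD, n = 3), and the spleen at 17.9 TPM ± 3.13 was above the blood alone, at 6.37 TPM ± 0.965. Lag3 was at 83.1 TPM ± 1.28 in lymph node and at 30.0 TPM ± 3.28 in spleen, and between 2.22 and 9.84 TPM at the other sites, so both organs exceeded those. Foxp3 was at 239 TPM ± 2.14 in lymph node and 230 TPM ± 7.65 in lung, where the libraries overlapped in range. Spleen had 140 TPM ± 9.03, close to liver and bone marrow. Icos was higher in lymph node, at 176 TPM ± 3.5, than in spleen, at 71.0 TPM ± 5.53, but highest in lung, at 422 TPM ± 10.7.

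For the genes higher in spleen the order over sites differed from gene to gene. Penk was highest in spleen, at 104 TPM ± 9.96, with liver at 91.7 TPM ± 5.96. Il2 was at 13.9 TPM ± 1.74 in spleen, 14.1 TPM ± 6.27 in liver and 5.03 TPM ± 1.21 in lung, and at 0.21 to 1.11 TPM in lymph node, bone marrow and blood. Cxcr3 in spleen, at 84.2 TPM ± 6.86, lay below liver, lung and bone marrow at 107 to 138 TPM and above lymph node and blood. Fos was lowest in lymph node and second lowest in spleen, and reached 2200 TPM ± 12.9 in bone marrow. Hspa1b was at 39.2 TPM ± 2.52 in spleen and at 2470 TPM ± 261 in liver. These levels over 6 sites are a description, and no test was made between the other sites.

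**Figure D5:**
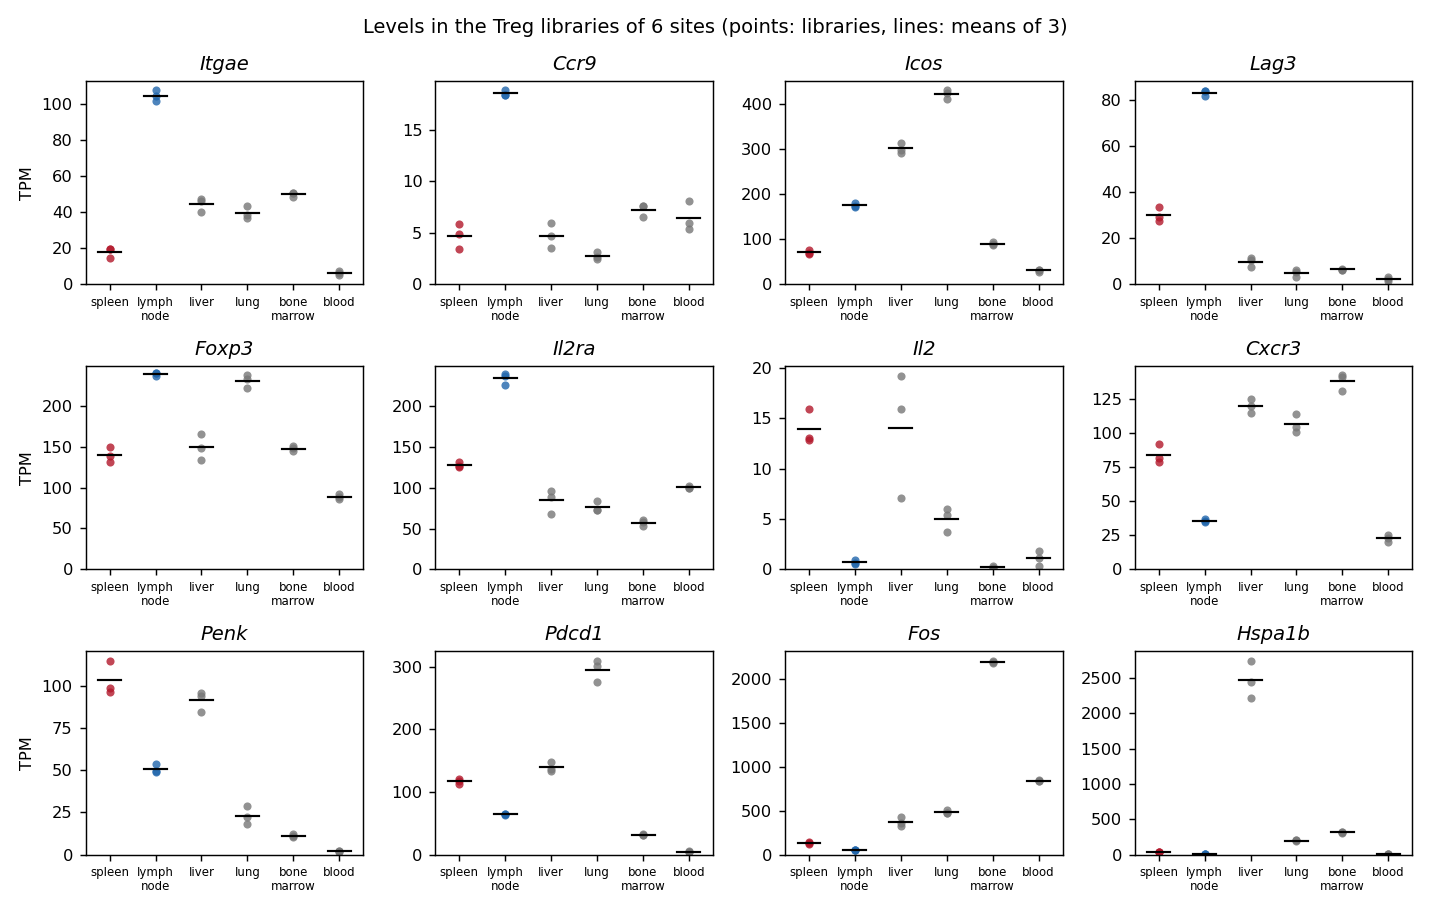
TPM of 12 genes in the Treg libraries of the 6 sites, with a point per library and a line at the mean of 3, spleen in red and lymph node in blue. Lymph node is highest for Itgae, Ccr9, Lag3, Foxp3 and Il2ra, and spleen and lymph node are both low for Fos and Hspa1b beside bone marrow and liver.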

How the data were processed

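Poly(A) RNA of sorted Treg cells was sequenced with a directional kit, per the labels' protocols. For each library the authors deposited TPM values, to 2 decimals, of 55487 Ensembl gene IDs. STAR, RSEM and the mm10 build are named in the submitters' processing notes without versions, and the annotation and strand setting are not given in the sources used here. GENCODE M21 named 55141 IDs.

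Spleen and lymph node libraries, grouped by their labels, were compared with limma 3.58.1 in R 4.3.3 (eBayes with trend and robust settings, 6 libraries) on log2(TPM + 1), with Benjamini-Hochberg adjustment. The procedure was tested on simulated data with the same spread in both organs and no length trend. That test cannot speak for the unequal spread or the length trend of the real libraries. TPM keeps no depth, so depth was read from value steps of 12062 single-transcript genes, where 73.4% to 89.1% of low values fell within 0.1 of a whole read. The length trend was a loess curve of span 0.5, fitted to genes of at least 10 TPM and subtracted.

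The lists and comparison were chosen with earlier results of these data known, and lists are described by counts and medians alone. Named are the 15 genes per direction with the largest change among called genes of at least 10 TPM without overlap (no predicted or antigen receptor genes), and up to 4 called genes per list and direction. Defining Treg genes and markers are also named, and some genes that the rule selects are not reported here. Genes named outside this rule were chosen after their values were seen: Tbx21, Ifng, Sostdc1, Ahr, Ccr10, Irf4, Lef1, Satb1, Ikzf4, Ccr4, Cxcr6, Il18r1, Jak1, Jak3, Il2rb, Stat5a, Ier2, Dusp1, Zfp36, Nt5e, Ccl3, Itga6, Ncr1, and members that were not called. Alternatives were other pseudocounts (0.1, 5), filters (none, 5 TPM) and scalings, all 18 libraries, library weights, a replicate block and leaving out each library.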

Additional observations from a re-analysis of the deposited data

How the results depend on the processing

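Of 135 named genes, 133 were called, and 124 of these kept call and direction under the 3 other scalings. Among all genes, 805 of the 1022 higher and 503 of the 2749 lower genes did so. Many named genes were chosen for large differences, and some that the rule selects are left out. Their share is therefore no measure for all calls. Directions turned in 4 cases, for Btla (0.02), Ikzf2 (0.03) and Cd4 (0.05) on the T cell gene scale and for Ikzf2 (0.26) with the length trend removed. The cause was not tested.

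The 1022 higher genes became 1553 with the median of ratios and 1956 on the T cell gene scale. They became 612 to 623 without a lymph node library, against 1053 to 1078 without a spleen library, at the same number of libraries. Estimated library weights were 0.475 to 0.504 in spleen and 1.91 to 2.21 in lymph node. With these weights 955 genes were higher and 2622 lower. Why the counts fell without a lymph node library was not tested. The 2749 lower genes became 1232, 803, 1744 with the abundant classes removed, 1701 with all 18 libraries and 850 with the length trend removed, 1344 to 1355 without a lymph node library and 2740 to 2826 without a spleen library. The 444 genes higher by at least 1 log2 unit became 215 with a pseudocount of 5. The 237 lower ones became 48 with that pseudocount, 122 with the filter of 5 TPM, 147 with the median of ratios and 128 on the T cell gene scale, 129 to 140 without a lymph node library and 281 to 310 without a spleen library.

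Deviations from the group means correlated at 0.0236, -0.0052 and -0.00518 between same-numbered libraries, and at -0.0272 to 0.0327 between the others. Correlations over all genes tested can miss a weak pairing, and the labels do not say whether same-numbered libraries share mice. With the replicate block 810 genes were higher and 1968 lower. Cd4 was then called lower (adjusted p = 0.0496 in limma). Small differences of genes under about 10 TPM are limited by depth in spleen, where such a level at 1 kb is 60.1 to 66.2 reads.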
